A study of Mus musculus with 321 samples.

Results

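The Gimap genes encode GTPases of the immunity-associated protein family, GTP-binding proteins of lymphocytes that lie side by side in 1 cluster. All 8 members studied here, Gimap8, Gimap9, Gimap4, Gimap6, Gimap7, Gimap1, Gimap5 and Gimap3 in their order along chromosome 6, were chosen by name from the 21887 protein-coding genes of the RefSeq table, and each was taken with its gene body and 10 kb on each side. These windows ran into each other and formed a single stretch of 143.7 kb, chr6:48637186-48780851 (GRCm38). Open chromatin was mapped in that stretch by ATAC-seq in 2 libraries of Tcf-1 knockout (KO) and 2 of wild-type (WT) CD4+CD8+ double-positive (DP) thymocytes, which had been sorted from mice. It was also mapped in 4 libraries of NIH3T3 fibroblasts carrying a retrovirus with Tcf-1 (Tcf-1 RV) and 4 carrying an empty one (Empty RV).

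The KO genotype is given as TCF-1-/- deltaVII and the WT strain as C56BL/6, with no age or sex of the mice and no word on whether replicates came from separate animals. NIH3T3 is an established embryonic fibroblast line from NIH/Swiss mice, used at passages 8-12, so every fibroblast library comes from 1 line. The repressive histone marks H3K27me3 and H3K9me3 were mapped in 2 libraries each of NIH3T3 cells, whose titles name no virus. Libraries of these marks from Tcf-1 RV cells are also part of the series and were not used here. Tcf-1 binding in Tcf-1 RV cells was given as 1 pooled list of 40562 summits under a day 2 tag. Files tied to a single sample were at hand for 16 of 321 samples. RNA-seq was not analysed here, so nothing below is a transcript level.

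Members of the family differ in structure and role. Gimap8 is the largest of them and carries several GTP-binding domains, while the others carry a single one. In mice, Gimap1 and Gimap5 are needed for the survival of mature lymphocytes, and loss of Gimap5 in rats causes a severe lack of T cells. Gimap4 has been linked to lymphocyte death, Gimap6 to autophagy, and Gimap3 to mitochondrial inheritance in mice. Several members are induced as thymocytes mature past the DP stage. Tcf-1, encoded by Tcf7, is a DNA-binding factor of the T lineage that recognises TCF/LEF motifs. H3K27me3 is the mark of Polycomb repression, and H3K9me3 marks heterochromatin.

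The peak lists differed in length between groups. KO replicates 1 and 2 held 11171 and 12209 peaks, and WT replicates 1 and 2 held 23249 and 30985. Tcf-1 RV lists held 36583 to 62639 peaks and Empty RV lists 22778 to 58026. The ATAC-seq files give no read depth, and the number of peaks is all that shows how deeply a library was called. Of 10 DP thymocyte markers, those with a peak in their windows numbered 4 and 9 in KO replicates 1 and 2 and 10 in each WT library; KO replicate 1 had none at Cd3e, Cd4, Cd8b1, Rag1, Rag2 or Themis. The part of this gap between the KO libraries in the results below was not tested. Over the same windows of gene body and 10 kb each side, 2 and 1 of 6 B cell markers had a peak in KO replicates 1 and 2, against 3 in each WT library. Of 4 erythroid markers, 1 had a peak in each KO library and 3 in each WT library. Of 4 NK markers, 0 and 1 had a peak in KO replicates 1 and 2, against 2 in each WT library. Marker counts of these types were thus lower in KO too, whereas of 5 myeloid markers 2 had a peak in each of the 4 libraries. Of 3 endothelial markers, none had a peak in KO, against 1 and 2 in WT replicates 1 and 2. Over start windows, no DP library had a peak at any marker of these 5 types, while 1 and 5 of the DP markers had one in KO replicates 1 and 2, against 7 in each WT library. Such windows are not specific to a cell type, since 5 to 7 of the 10 DP markers had a peak in every NIH3T3 library, though none over a start window. All 9 fibroblast markers had a peak in every NIH3T3 library, against 0 and 1 in KO replicates 1 and 2 and 2 and 6 in WT replicates 1 and 2. Within the Tcf7 gene body, 1 peak was called in each KO library and 2 in each WT library, against 5 to 8 in Tcf-1 RV and 1 to 5 in Empty RV libraries. Peak calls do not show whether the deleted part of the gene is absent. Nor do they show whether Tcf-1 sequence carried by the retrovirus was counted there. The map of the locus shows where the calls fell.

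**Figure D1:**
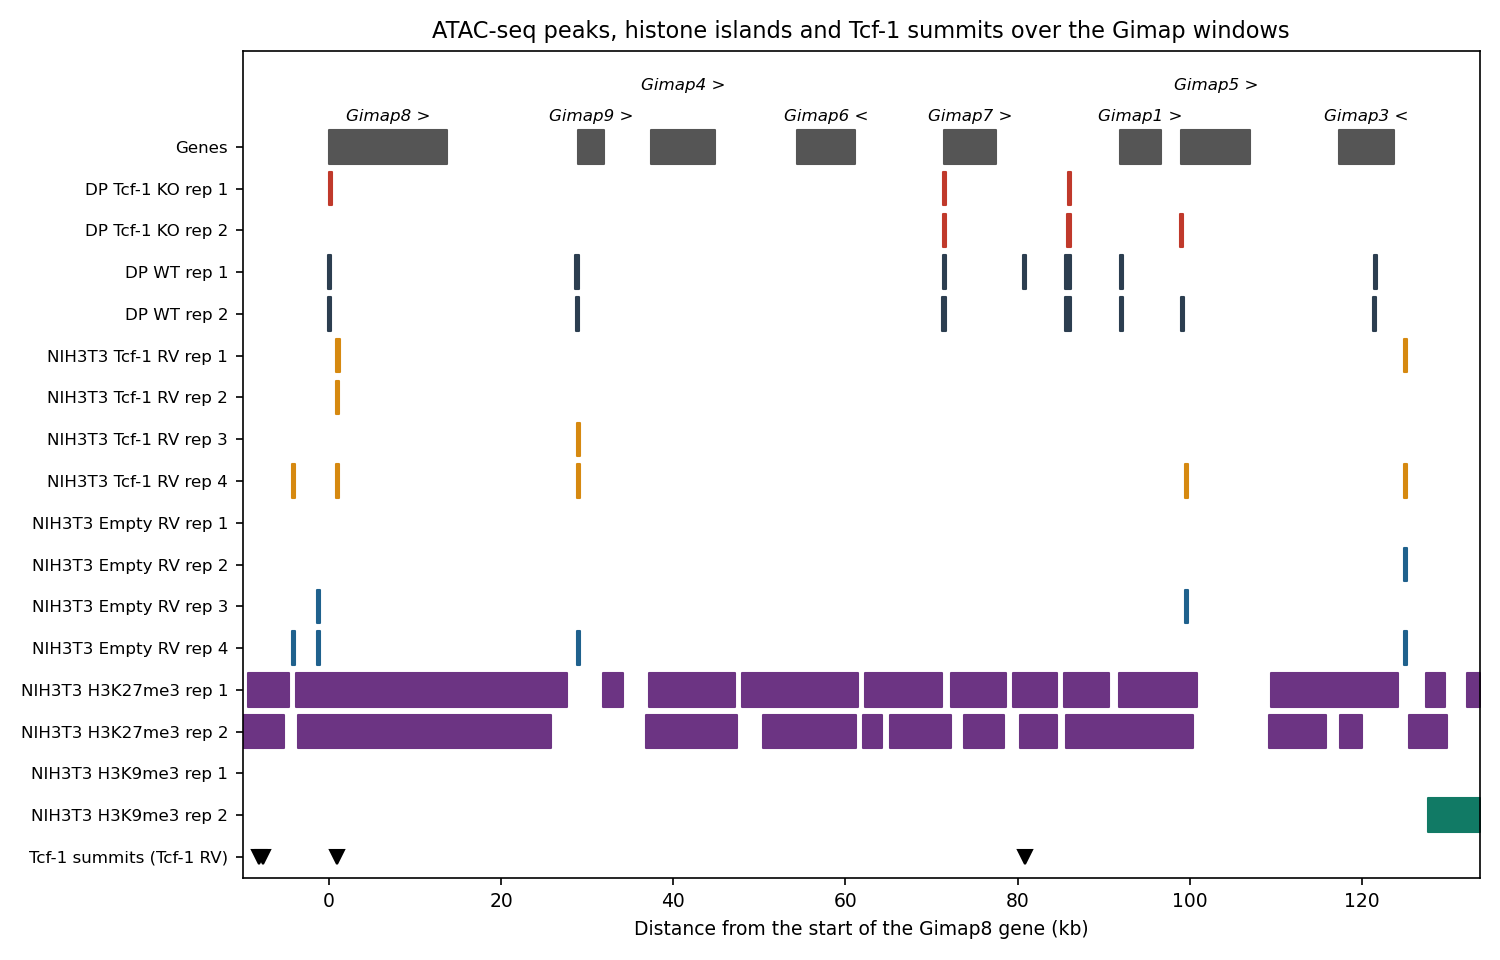
Map of the Gimap windows, with the distance from the start of the Gimap8 gene in kb on the horizontal axis and 1 row per library; arrows after gene names give the strand, bars are ATAC-seq peaks (drawn at least 0.35 kb wide) or SICER islands, and triangles are Tcf-1 summits. Each KO library has 3 peaks and each WT library 7, no H3K9me3 island is shared by both replicates, and H3K27me3 islands run along most of the cluster in both replicates.

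The first comparison asks which open regions of DP thymocytes were called in WT and not in Tcf-1 KO libraries. In the Gimap windows the start regions of Gimap9 and Gimap1 and a site within Gimap3 were open in both WT libraries and in neither KO library. The start site of Gimap7 and a site between Gimap7 and Gimap1 were open in all 4 libraries. The peaks of the 4 libraries were merged into 8 regions, and a library holds a region when any of its peaks falls in it. A region was called lost if both WT and neither KO library held it. Of the 6 regions held by both WT libraries, 3 were lost, 2 were held by both KO libraries as well and so called kept, and 1, at Gimap8, was held by KO replicate 1 only. No region was gained, that is, held by both KO and neither WT library (0.142% of all 31628 merged DP regions were). The lost share was 50% (exact Clopper-Pearson 95% interval 11.8 to 88.2, for counting error only). Across the genome 45.7% of the 21952 regions held by both WT libraries were lost and 42.1% kept, so the shares in the cluster lay near this background. It pools regions of every kind, and the shares for gene starts, given below, differ from it. Of all merged DP regions 31.7% were lost. Without KO replicate 1, the library with few DP markers, the Gimap8 region was also lost, which made 4. With 2 libraries against 2, an exact test of a single region cannot give a p below 0.333, so none was run.

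Gimap9 had the widest lost peak. Its region, chr6:48675772-48676276, spans the RefSeq start site, where the lncRNA gene Gm46958 also lies. No peak was called in either KO library, while the peak was 491 bp wide in WT replicate 1 and 418 bp in WT replicate 2. Gimap1, which mature lymphocytes need, had no peak at its start in either KO library, against peaks of 258 and 399 bp in WT replicates 1 and 2 (chr6:48739040-48739438). The start site at 48739047 lay in the peak of WT replicate 2, while that of WT replicate 1 began just downstream of it, at 48739064. The lost region of Gimap3, chr6:48768466-48768855, lay inside the gene, 1996 bp downstream of the start site, with no peak in KO and peaks of 269 and 385 bp in WT.

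The regions that remained were narrower in KO. At the start of Gimap7 (chr6:48718440-48718879) the peaks were 333 and 246 bp wide in KO replicates 1 and 2, against 346 and 432 bp in WT replicates 1 and 2. The region between Gimap7 and Gimap1, chr6:48732648-48733383, lay 5664 bp upstream of the start of Gimap1 and was the widest of the cluster. Its peaks were 303 and 413 bp wide in KO, against 644 and 736 bp in WT. Both KO libraries were narrower than both WT libraries at each of these 2 regions. The mean width ratio of KO over WT was 0.744 at Gimap7 and 0.519 at the region between the genes, and its median over the 9239 regions held by all 4 libraries was 0.741. Of those regions, 11.1% had a lower ratio than the region between the genes, so its narrowing was on the large side and that at Gimap7 was typical.

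Calls at other starts were mixed. At Gimap8 a peak of 205 bp was called in KO replicate 1 and none in KO replicate 2, against 268 and 272 bp in the WT libraries (chr6:48647117-48647396, over both annotated start sites). At Gimap5, whose loss depletes T cells, KO replicate 2 had a peak of 200 bp and WT replicate 2 had 1 of 203 bp, while replicate 1 of each group had none (chr6:48746055-48746305). A peak of 200 bp between Gimap7 and Gimap1, chr6:48727839-48728038, was called in WT replicate 1 alone. Gimap4 and Gimap6 had no peak at their start in any DP library, and no peak at all fell in the window of Gimap6.

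**Figure D2:**
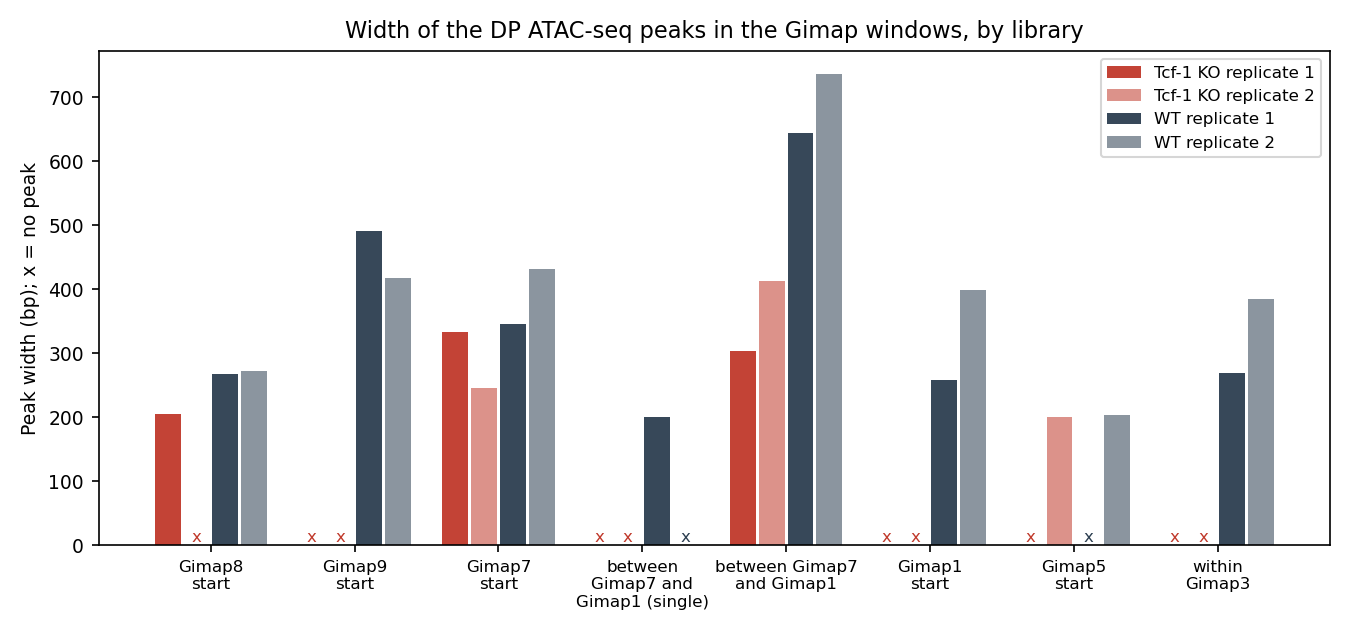
Width in bp of the ATAC-seq peak in each DP library (vertical axis) at the 8 regions of the Gimap windows in chromosomal order (horizontal axis); each bar is 1 library and x marks a library with no peak. The starts of Gimap9 and Gimap1 and the site within Gimap3 have bars in WT only, while the Gimap7 start and the site between Gimap7 and Gimap1 have bars in all 4 libraries.

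Start windows of 300 bases from RefSeq, all 8 members matched, gave the same calls with strand taken into account. Of the 4 members with a peak over a start window in both WT libraries, Gimap9 and Gimap1 had none in KO, Gimap7 had one in both KO libraries and Gimap8 in KO replicate 1. Among the 7507 genes open in this way in both WT libraries, 10.7% had no such peak in either KO library and 79.6% had one in both. Lost starts, 2 of the 4 members, were thus a larger share than among all such genes. Kept starts, 1 of the 4, were a smaller share. With so few members this difference was not tested. The sequences of these 4 starts are shown because they carry the contrast between the lost, mixed and kept starts. Each runs 5′ to 3′ on the plus strand from 250 bases before the start site to 30 bases after it (RefSeq, GRCm38.p6), and capitals mark ETS letters, the only searched letters found in these stretches.
Gimap9 (chr6:48675885-48676164, lost): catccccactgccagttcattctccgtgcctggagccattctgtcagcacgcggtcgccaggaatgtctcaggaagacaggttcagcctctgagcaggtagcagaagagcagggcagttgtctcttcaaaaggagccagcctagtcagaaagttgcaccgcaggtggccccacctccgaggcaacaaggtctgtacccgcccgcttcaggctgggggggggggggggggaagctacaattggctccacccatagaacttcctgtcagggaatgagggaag
Gimap1 (chr6:48738797-48739076, lost): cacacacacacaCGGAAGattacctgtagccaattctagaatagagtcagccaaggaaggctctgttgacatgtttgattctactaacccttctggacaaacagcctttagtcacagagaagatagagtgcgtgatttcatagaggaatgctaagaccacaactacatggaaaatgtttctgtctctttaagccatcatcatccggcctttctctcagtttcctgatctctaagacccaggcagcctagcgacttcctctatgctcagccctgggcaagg
Gimap7 (chr6:48718371-48718650, kept): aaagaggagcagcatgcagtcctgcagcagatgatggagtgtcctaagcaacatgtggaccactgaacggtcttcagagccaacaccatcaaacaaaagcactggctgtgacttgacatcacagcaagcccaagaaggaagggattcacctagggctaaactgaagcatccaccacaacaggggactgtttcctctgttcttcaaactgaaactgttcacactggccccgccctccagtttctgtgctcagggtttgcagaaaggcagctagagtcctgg
Gimap8 (chr6:48646984-48647263, mixed): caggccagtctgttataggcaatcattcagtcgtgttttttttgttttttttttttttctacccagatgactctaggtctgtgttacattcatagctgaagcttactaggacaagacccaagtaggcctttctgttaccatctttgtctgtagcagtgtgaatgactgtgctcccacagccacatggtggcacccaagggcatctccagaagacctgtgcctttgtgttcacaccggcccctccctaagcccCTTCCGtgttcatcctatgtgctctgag

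Both strands of the start windows were searched for CTTTGNN with A or T at each N, the letters of TCF/LEF factors. ETS factors were searched as CGGAAG. The RUNX search used TGNGGTT with T or C at N. GATA factors were searched as AGATAA, and no match overlapped one of another kind in the members. TCF/LEF letters occurred at 2 of 8 members: CTTTGAA began at base 43 after the start site of Gimap7, beyond the stretch printed, and CTTTGTA at base -130 of Gimap3. They occurred in 16.9% of all 32851 start windows. ETS letters occurred at 3 of 8 members, Gimap8, Gimap6 and Gimap1, and in 16.9% of all windows. RUNX and GATA letters occurred at none of the members, against 6.75% and 11.2% of all windows. Neither of the lost starts held TCF/LEF letters in its window; this describes these letters in these 300 bases only.

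Counted per library, 3 peaks lay in the Gimap windows in each KO library and 7 in each WT library. The groups did not overlap, but the exact two-sided permutation p was 0.333, the smallest that 2 against 2 libraries allow. The WT count was 2.33 times the KO count, and the whole WT lists were 2.32 times as long as the KO lists. Per 10000 peaks of a library, the windows held 2.69 and 2.46 peaks in KO and 3.01 and 2.26 in WT, which overlap (exact permutation p 1). In base pairs covered, the windows held 841 and 859 bp of peaks in KO and 2476 and 2845 bp in WT, a WT mean 3.13 times the KO mean, beside 2.44 times over the whole lists. The cluster thus had fewer peaks in KO in about the proportion of the whole lists. In bulk libraries, fewer cells with an open site and a weaker opening in each cell cannot be told apart.

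When every DP library was cut to its 11171 widest peaks, none of the 3 lost regions was called lost and the Gimap7 start was called gained. That limit kept peaks down to 200 and 210 bp in KO replicates 1 and 2, but only those of at least 349 and 443 bp in WT replicates 1 and 2. The region between Gimap7 and Gimap1 was held by all 4 libraries under it. The peaks of WT replicate 2 at Gimap9, Gimap1 and Gimap3 were narrower than its limit. None of these regions could thus be called lost after the cut, which cannot decide on their loss. The loss at Gimap9, Gimap1 and Gimap3 is a statement about the deposited lists.

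By member, 5 of 8 had a lost region in their window (Gimap9, Gimap4, Gimap1, Gimap5 and Gimap3), against 26% of all 21887 protein-coding genes and 43.1% of the 13212 with a region held by both WT libraries. Neighbours share regions: the 3 lost regions are counted for Gimap9 and Gimap4, for Gimap1 and Gimap5, and for Gimap3. With windows of the gene body alone the number was 3. In 3 of 8 members, Gimap9, Gimap4 and Gimap3, each KO library had fewer peaks than either WT library, as had 25.2% of all protein-coding genes.

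**Figure D3:**
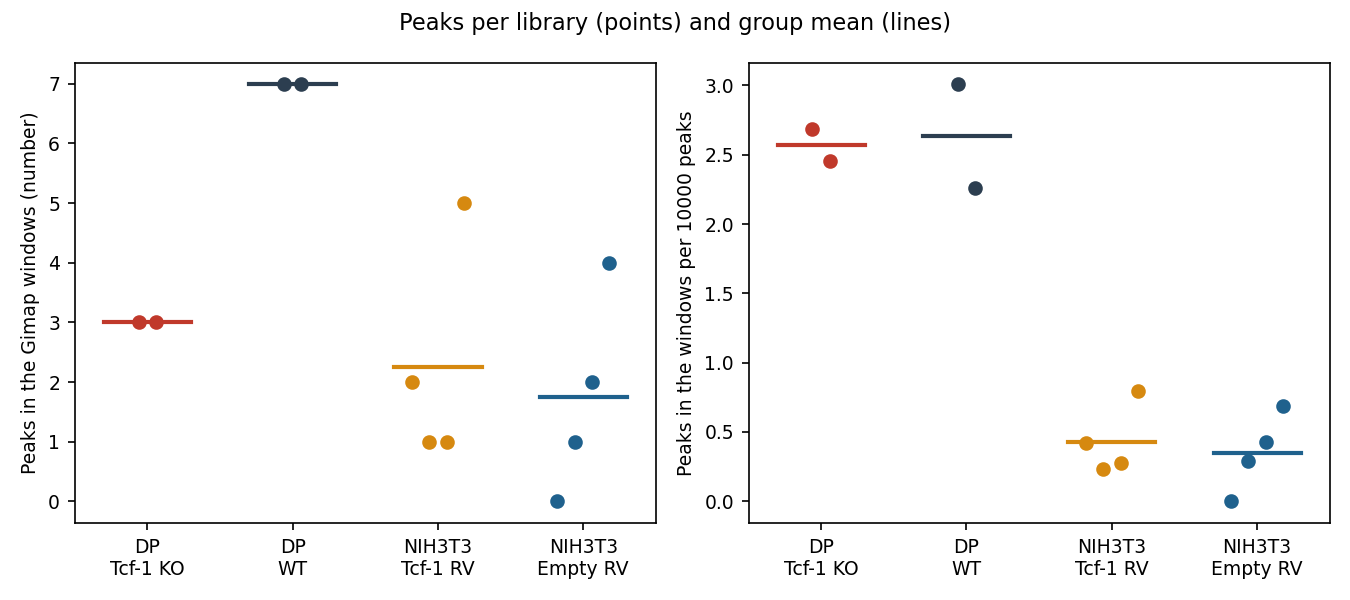
Number of peaks in the Gimap windows per library (left) and the same per 10000 peaks of the library (right); points are libraries and lines are group means of 2 DP or 4 NIH3T3 libraries. The KO libraries have 3 peaks each and the WT libraries 7 each, whereas per 10000 peaks both groups lie between 2.26 and 3.01.

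Other gene groups were set beside the cluster with the same rule and no test. Of the regions held by both WT libraries, 8 of 11 were lost in the windows of the SLAM receptor family, 11 of 16 in those of the CD3 genes and 13 of 15 in those of 12 interferon-induced GTPases (Gbp and Irg families). In the windows of 9 genes that flank the Gimap cluster, 0 of 3 were lost. The nearest coding neighbours are Zfp775 and Tmem176b. The start of Zfp775 was open in all 4 DP and all 8 NIH3T3 libraries, and that of Tmem176b in none. Among genes with at least 5 regions held by both WT libraries, the first by share and number lost were Magi2 and Pard3 (9 of 9 each), Cdk6 and Tns3 (8 of 8 each) and Filip1 (6 of 6).

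The second comparison asks whether Tcf-1 opens chromatin in a fibroblast. In the Gimap windows the region with the lowest p lay within Gimap8, chr6:48647991-48648479. It had peaks of 489, 305 and 285 bp in Tcf-1 RV replicates 1, 2 and 4, none in Tcf-1 RV replicate 3 and none in the 4 Empty RV libraries. A Tcf-1 summit lay in it at position 48648155, 794 bp downstream of the nearer of the 2 annotated start sites of Gimap8. The score of this summit, 55.8 on a scale that the file does not state, ranked 5113 among 40562. The region lay in an H3K27me3 island of both replicates, mapped in NIH3T3 libraries whose titles name no virus. It began 594 bp after the end of the region that DP thymocytes held at the Gimap8 start, so the 2 did not overlap.

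The Gimap8 region did not pass the test. Its two-sided Fisher exact p over libraries was 0.143, and adjusted by Benjamini-Hochberg over all 77882 merged NIH3T3 regions it was 1. With 4 libraries against 4 the adjusted p was 1 for every region of the genome, although 925 had an unadjusted p under 0.05, so this test cannot call any single region. A region was called gained if all 4 Tcf-1 RV and no Empty RV library held it, and 0 of the 6 regions of the windows were, against 1.08% of all regions; 0 were lost in the reverse pattern, against 0.11%. No member had a gained region, against 2.54% of protein-coding genes. No region of the windows had an unadjusted p under 0.05. At least 3 Tcf-1 RV and no Empty RV library held 3.66% of all regions, and 72% of these had a summit. Of those with a summit, 4.72% lay in H3K27me3 of both replicates. Tags in the file names put replicates 1 and 2 on day 2 and replicates 3 and 4 on day 4. On day 2 both Tcf-1 RV and neither Empty RV library held the Gimap8 region, and on day 4, 1 of 2 Tcf-1 RV and neither Empty RV library did. Paired by replicate number, the region was gained in 3 of 4 pairs and opposite in none. Any pairing gives this result when 3 Tcf-1 RV and 0 Empty RV libraries hold a region, so it adds nothing to those counts. Without Tcf-1 RV replicate 3, whose list of 36583 peaks was the shortest of that arm, the region would be called gained. Of the Empty RV libraries, which had no peak there, replicates 1 and 2 had shorter lists still, of 22778 and 34601 peaks. Empty RV replicates 3 and 4 had longer ones, of 46819 and 58026. The part of list length in this pattern was not tested.

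Of the other 5 fibroblast regions, 4 were held by libraries of both arms and 1 by Empty RV libraries alone. At the start of Gimap9 (chr6:48675983-48676318) peaks of 254 and 290 bp were called in Tcf-1 RV replicates 3 and 4 and of 321 bp in Empty RV replicate 4. This was the only DP region of the cluster that a fibroblast library also held. The share of all DP regions held in fibroblasts was not computed. Gimap9 was the only member with an open start window in any NIH3T3 library. No member had one in all 4 Empty RV libraries, against 33.4% of the 17492 genes with a start window in RefSeq. A region 1206 bp upstream of the Gimap3 start (chr6:48772057-48772379) was held by 2 Tcf-1 RV and 2 Empty RV libraries. Regions inside Gimap5 (chr6:48746586-48746787) and 4090 bp upstream of Gimap8 (chr6:48642920-48643144) were held by 1 library of each arm. A region 1236 bp upstream of Gimap8 (chr6:48645769-48645998) was held by 2 Empty RV libraries, replicates 3 and 4, and no Tcf-1 RV library (Fisher exact p 0.429). These are the Empty RV libraries of day 4, so with day 4 alone this region would be called lost, and on day 2 no library held it. No region of the windows was held by more than 4 of the 8 libraries.

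Per library, 2, 1, 1 and 5 peaks lay in the windows in Tcf-1 RV replicates 1 to 4 and 0, 1, 2 and 4 in Empty RV replicates 1 to 4. The means were 2.25 ± 1.89 and 1.75 ± 1.71 (SD, n = 4 each), and the exact two-sided permutation p was 0.8. The difference was smaller than the spread between replicates, and it turned to -0.42 without Tcf-1 RV replicate 4 and to -0.08 without Empty RV replicate 1. It was 1 on day 2 and 0 on day 4. Paired by replicate number the exact sign-flip p was 0.75. The libraries with the longest list of each arm, replicates 4, had the most peaks in the windows.

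The cluster carried the Polycomb mark in fibroblasts. H3K27me3 islands called in both replicates covered 66.95% of the 143.7 kb, 80.2% in replicate 1 and 71.1% in replicate 2, while islands of both replicates covered about 8.10% of the genome. Start sites of 5 of 8 members, Gimap8, Gimap4, Gimap6, Gimap1 and Gimap5, lay in an island of both replicates, against 12.7% of the 17492 genes with a start window in RefSeq. The whole gene bodies of Gimap8, Gimap4, Gimap6 and Gimap1 were covered. At least 50% of the window was covered in 7 of 8 members, as in 8.98% of all protein-coding genes. Gimap8 was highest at 93.4% of its window and Gimap3 lowest at 42.4%. The windows overlap, so these members are not independent of each other.

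The longest island lay over Gimap8. It ran over 31.4 kb in replicate 1 (chr6:48643401-48674799), with 1204 ChIP reads against 1306 control reads, an authors' fold of 1.94 after scaling and an adjusted p of 2.44e-94. In replicate 2 it ran over 29.4 kb, with 1211 against 1226 reads, a fold of 2.12 and an adjusted p of 6.9e-118. It was at least as long as 98.8% of the islands of its file in both replicates. The folds over the cluster were moderate, at 1.40 to 2.23 in replicate 1 and 1.34 to 2.53 in replicate 2, beside median folds of 2.02 and 2.03 over all islands of these files. With islands of a fold of at least 2 only, the share of the windows in both replicates was 5.99%, while 59.96% of the marked base pairs of the genome remained.

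Gaps in the mark stood at Gimap9 and Gimap5. Neither replicate had an island from 48674800 to 48679000, a gap of 4.201 kb that holds the start site of Gimap9, and the body of Gimap9 was 0% covered by islands of both replicates. The start region of Gimap9 that was open in 3 fibroblast libraries lay in this gap. The longest gap, 8.40 kb from 48748000 to 48756400, held most of the body of Gimap5, whose start site was nevertheless in an island of both replicates. Of the 6 fibroblast regions, 3 had their midpoint in islands of both replicates (those within Gimap8, inside Gimap5 and 1236 bp upstream of Gimap8) and the other 3 touched gaps.

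**Figure D4:**
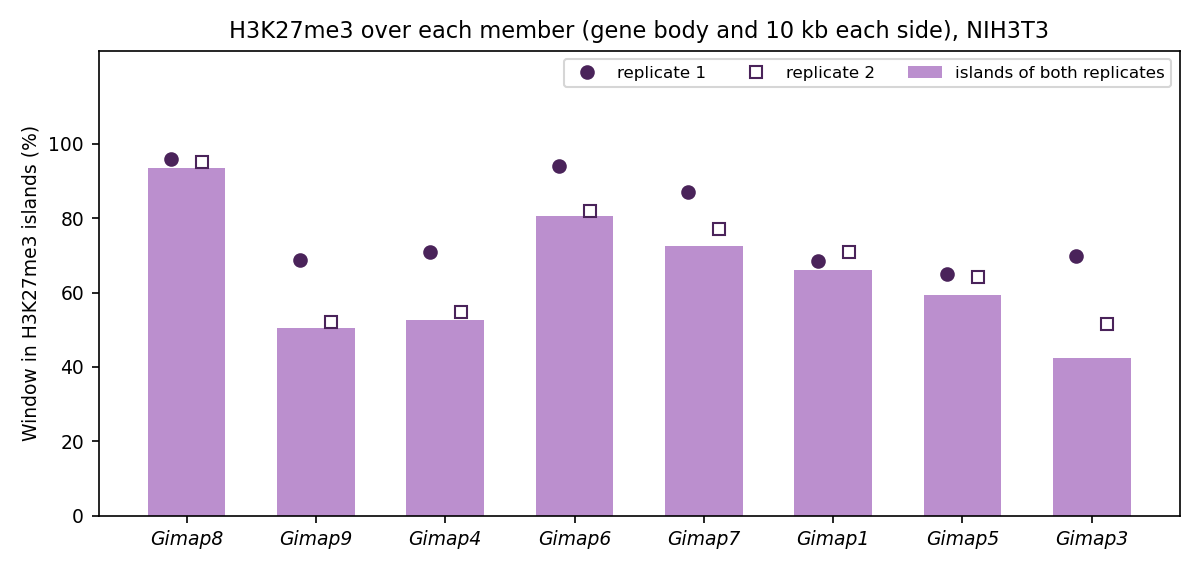
Share of each member's window (gene body and 10 kb each side, in percent) inside H3K27me3 islands of NIH3T3 cells, in chromosomal order; bars are islands called in both replicates, filled circles replicate 1 and open squares replicate 2. Gimap8 reaches 93.4% and Gimap3 42.4%.

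H3K9me3 was nearly absent from the windows. No island was called in replicate 1, and in replicate 2 a single island of 14.8 kb with a fold of 1.39 reached into the stretch upstream of the Gimap3 start and covered 4.21% of the windows. Islands of both replicates covered 0% of the windows, against about 12.8% of the genome, and touched none of the 8 members, against 32.1% of protein-coding genes. H3K9me3 was low in the other gene groups too. Islands of both replicates covered 4.24% of the SLAM windows, 0% of the CD3 windows, 2.02% of those of the interferon-induced GTPases and 7.50% of those of the flanking genes. Across the same groups, H3K27me3 of both replicates covered 0% of the SLAM windows, 47.7% of the CD3 windows, 11.3% of those of the interferon-induced GTPases and 33.4% of those of the flanking genes.

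In all, 4 Tcf-1 summits lay in the windows, at 27.8 per Mb beside 14.9 per Mb over the genome. All 4 were in H3K27me3 islands of both replicates, mapped in NIH3T3 libraries whose titles name no virus and not in Tcf-1 RV cells. These islands cover 66.95% of the windows, so most positions there lie in one. The share of all 40562 summits in such islands was not computed. Besides that in Gimap8, a pair lay upstream of Gimap8 at 48639119 and 48639553, with scores of 6.03 and 5.97, each higher than fewer than 9% of the list, and no ATAC-seq library had a peak over either. The last, at 48728016 between Gimap7 and Gimap1 with a score of 17.4, beside a median of 17.01, had no peak in any fibroblast library but lay in the region that WT DP replicate 1 alone held. No other DP region of the cluster held a summit, the lost regions of Gimap9, Gimap1 and Gimap3 included. The share of all DP regions, or of all lost ones, that hold a summit was not computed. Whether this absence is usual is thus not known. The summits come from Tcf-1 RV fibroblasts under a day 2 tag, while the fibroblast peaks set beside them come from libraries of both days. Binding in thymocytes was not analysed here. Of 8 members, 2 (Gimap8 and Gimap7) had a summit in their window, against 48.4% of protein-coding genes.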

How the data were processed

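Peak lists, islands and summits were used as the authors deposited them. Per the submitters' processing notes the tools included Bowtie2 2.2.9, MACS2, STAR 2.5, Trim Galore, FastQC and Picard, and the builds GRCm38, mm10 and GRCh37; the role of each tool was not stated. The ATAC-seq files that the authors deposited hold start and end of each peak per library and no height. The histone files that the authors deposited hold SICER islands per library with read counts of ChIP and control, a fold (the ratio of those counts times 1 constant per file), a p-value and an adjusted p-value, all under 0.01. The pooled Tcf-1 list that the authors deposited has a score of unstated scale.

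Peaks on unplaced sequences (293) were left out. Peaks that shared at least 1 bp were merged within each cell type. Gene positions came from RefSeq (GRCm38.p6). Libraries were compared by exact two-sided permutation tests and NIH3T3 regions by Fisher's exact test with Benjamini-Hochberg adjustment over all regions, using Python 3.11.15 and SciPy 1.17.1. The calling steps were tested on simulated lists, with regions planted in every library of 1 arm and none of the other. List lengths matched between the arms, so this checks that the rule runs as written and not how unequal lists affect it. Members, lists and tests were chosen with earlier results of these data known. The named genes are the 8 members, their nearest coding neighbours, and 5 genes with at least 5 regions held by both WT libraries and the highest share lost. Same-numbered NIH3T3 libraries deviated together (correlations of 0.125 to 0.260 over regions in 4 pairs). The permutation and Fisher tests took no account of this pairing. It entered only the sign-flip test and the rule by pairs, as alternatives. Other-numbered libraries of the same day tag also had positive correlations, of 0.065 to 0.194, and those of different day tags had negative ones. Same numbers share a day tag, so pairing by number and by day cannot be fully told apart. DP libraries of the same number did not deviate together (-0.05), and pairing was applied to them as an alternative only. The p-values weigh differences between groups against the spread between these libraries, which may be technical. Alternatives were other windows, equal lists, stricter overlap, absence and island limits, single day tags, and leaving out each library.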

Additional observations from a re-analysis of the deposited data

How the results depend on the processing

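Cutting all lists of a cell type to the same number of the widest peaks changed the DP results most: 0 regions were lost, 1 was gained and 0 members had a lost region, and the difference in peaks per library turned to 1 in favour of KO (exact permutation p 0.667). That limit by itself removes narrow WT peaks. The number of members with a lost region was 3 with the gene body alone and 3 with 5 kb each side. Leaving out 1 DP library gave 3 to 4 lost regions, 5 to 6 members and an unchanged difference of -4 peaks. For the NIH3T3 libraries, the gained count was 1 with day 2 alone. By pairs of the same replicate number (at least 3 of 4 pairs and none opposite) it was 1 too. Any pairing gives that result for the Gimap8 region, since 3 Tcf-1 RV and 0 Empty RV libraries held it. The gained count was 0 to 1 when a replicate was left out, and it rose only without Tcf-1 RV replicate 3. The lost count was 1 with day 4 alone, from the region 1236 bp upstream of Gimap8. The difference in NIH3T3 peaks per library was 0 with day 4 alone and -0.42 to 1.25 when a replicate was left out, reversed at -0.08 without Empty RV replicate 1 and at -0.42 without Tcf-1 RV replicate 4. The replicate block changed no other call; in DP the paired rule also gave 3 lost regions, and the DP correlation was -0.05 for same numbers. H3K27me3 covered 5.99% with a fold of at least 2, 52.5% with an adjusted p of at most 1e-10, and 71.1% to 80.2% in single replicates; H3K9me3 covered 0% to 4.21% in single replicates. Summits numbered 2 at or above the median score, 1 in gene bodies and 2 with 5 kb each side. The causes were not tested. Under the other alternatives differences kept their sign and counts stayed within 1.5 times. The covered percentages moved by less than the spread between replicates. Peak lists without height or depth limit every value to presence or absence of a call.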
